A study of Mus musculus with 32 samples.

Results

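The Hox genes of the mouse were followed in stroma and tumor pieces from EP2 knockout and wild-type hosts carrying MCG 101 tumors. The members were all genes on the array whose symbol is Hox, a cluster letter a to d and a number, with or without the ending os of an antisense transcript. They came to 41 of the 45616 gene names on the array: 12 of the HoxA cluster with Hoxa11os, 11 of HoxB with Hoxb5os, 9 of HoxC and 9 of HoxD. Each gene was read from 1 probe, the one with the highest mean over all 32 arrays.

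EP2 is the prostaglandin E2 receptor encoded by Ptger2. There were 4 groups of 8 arrays each, 4 labelled female and 4 male: stroma of EP2-/- (KO) hosts, stroma of EP2+/+ (WT) hosts, tumor of KO hosts and tumor of WT hosts. The same tumor line was implanted in both genotypes, so the labels place the deletion in the host and not in the implanted cells. The labels give no age, strain, implantation site or time, do not say which cells the stroma pieces held, and do not say whether the 8 arrays of a group came from 8 animals. The p-values therefore measure the spread between these arrays, part of which may be technical.

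Hox genes encode homeodomain transcription factors that lie in clusters in the same order in which they are used along the body axis. Genes with low numbers act towards the head, and genes with high numbers act towards the tail and the ends of the limbs and in the genital tract. Adult fibroblasts and other connective tissue cells keep a Hox pattern that reflects where in the body they come from, and that memory is held in chromatin by Polycomb and Trithorax proteins. Hox proteins bind DNA together with Pbx, Meis and Pknox partners.

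Levels are log2 signal minus the array's own 75th percentile, so a level of 0 equals that percentile. On a microarray the brightness of different probes is not comparable, so levels are compared within a gene only. In such bulk tissue, fewer cells of a type and less RNA per cell cannot be told apart. The 75th percentile of the raw signal ranged over the arrays from 584 to 1727, and between 50% and 76.3% of spots were well above background. The 76.3% was that of WT tumor 5. The number of arrays limits the precision. Ptger2 averaged -3.74 ± 0.49 in KO stroma and -4.60 ± 0.97 in WT stroma (SD, n = 8 each), and -4.51 ± 0.76 in KO tumor and -5.54 ± 0.94 in WT tumor. Where its probe lies relative to the deleted part is not known here, so these values check no label. On 3 stroma arrays (KO 95, KO 99 and WT 9) and 2 tumor arrays (KO 95 and KO 99), the Xist and Y-linked signal went against the sex label. WT stroma 65 and 82 lay among the tumor arrays on the first principal component of the 16734 genes well above background on every array. The counts of Hox genes called, the cluster medians and the values of Hoxa11 are given with and without these arrays, as are several other members.

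The stroma pieces were checked against cell type markers. The mean level of 10 fibroblast genes ran from 3.66 to 4.93 in KO stroma and from 2.33 to 5.44 in WT stroma, and from 2.18 to 3.76 in KO tumor and from 2.14 to 3.99 in WT tumor. Skeletal muscle genes were abundant in the stroma pieces: the mean of 10 of them had a median of 7.41 in KO stroma and 6.95 in WT stroma, and of 1.07 in KO tumor and -0.79 in WT tumor.

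The sequence just before an annotated start is shown for 6 members because the results turn on these genes. Hoxa11 and Hoxa11os were those whose KO and WT stroma differed most on the log2 scale within HoxA. Hoxd13 and Hoxb4 were lower in stroma than in tumor, and Hoxc4 and Hoxd9 were higher in stroma of KO hosts. Each line is the 250 bases before an annotated start of the gene, 5′ to 3′ on the gene's own strand, from RefSeq on GRCm38.p6. For Hoxc4 that start lies inside the gene's full span (103018097 to 103036856 on chromosome 15), so its window is not upstream of the whole gene. Capitals mark any match, on either strand, to the 6 motifs described after the sequences.
Hoxa11: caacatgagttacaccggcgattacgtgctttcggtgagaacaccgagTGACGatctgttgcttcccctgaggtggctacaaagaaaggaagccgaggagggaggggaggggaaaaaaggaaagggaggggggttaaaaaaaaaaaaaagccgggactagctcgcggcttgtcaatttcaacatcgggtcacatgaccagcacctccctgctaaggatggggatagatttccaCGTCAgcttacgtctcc
Hoxa11os: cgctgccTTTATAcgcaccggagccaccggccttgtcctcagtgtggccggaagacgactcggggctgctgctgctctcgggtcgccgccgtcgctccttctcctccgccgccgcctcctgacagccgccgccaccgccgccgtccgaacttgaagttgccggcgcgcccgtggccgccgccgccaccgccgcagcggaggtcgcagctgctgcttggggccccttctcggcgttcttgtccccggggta
Hoxd13: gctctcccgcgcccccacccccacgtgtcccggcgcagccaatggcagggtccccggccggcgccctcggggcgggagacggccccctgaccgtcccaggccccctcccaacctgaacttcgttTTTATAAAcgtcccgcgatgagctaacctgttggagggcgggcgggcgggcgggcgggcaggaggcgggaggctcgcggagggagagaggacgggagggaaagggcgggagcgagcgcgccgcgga
Hoxb4: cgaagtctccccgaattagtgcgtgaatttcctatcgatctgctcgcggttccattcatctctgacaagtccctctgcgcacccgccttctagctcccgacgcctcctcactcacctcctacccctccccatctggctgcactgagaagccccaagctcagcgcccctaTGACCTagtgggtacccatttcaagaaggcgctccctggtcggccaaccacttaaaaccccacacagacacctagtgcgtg
Hoxc4: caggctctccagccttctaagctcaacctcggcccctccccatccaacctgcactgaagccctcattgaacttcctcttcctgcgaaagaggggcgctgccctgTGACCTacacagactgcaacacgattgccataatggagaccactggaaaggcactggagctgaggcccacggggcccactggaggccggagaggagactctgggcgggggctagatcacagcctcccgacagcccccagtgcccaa
Hoxd9: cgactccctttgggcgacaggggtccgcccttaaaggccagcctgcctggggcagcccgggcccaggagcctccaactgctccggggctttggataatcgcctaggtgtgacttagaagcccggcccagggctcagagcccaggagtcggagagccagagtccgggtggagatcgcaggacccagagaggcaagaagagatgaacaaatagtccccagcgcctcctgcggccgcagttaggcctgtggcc

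These windows lie at chr6:52245811-52246060 on the minus strand for Hoxa11, chr6:52244993-52245242 (plus) for Hoxa11os, chr2:74667975-74668224 (plus) for Hoxd13, chr11:96318017-96318266 (plus) for Hoxb4, chr15:103034145-103034394 (plus) for Hoxc4 and chr2:74697513-74697762 (plus) for Hoxd9. Hoxa11 spans 52242105 to 52245810 on chromosome 6 and Hoxa11os, transcribed from the other strand, spans 52245243 to 52249769, so the genes share 568 bases and the Hoxa11os window lies inside Hoxa11. Whether either probe lies in the shared stretch is not known here. The windows were searched for TGACGTCA, the cyclic AMP response element through which the EP2 pathway's second messenger can act, and for its core TGACG, which every full element also holds. The other motifs were TGATNNAT, bound by Hox and Pbx proteins together, TTTATG, a core preferred by posterior Hox proteins, AGGTCA, a core bound by retinoid receptors, and the TATA box TATAAA. Windows were available for 23 of the 41 members, 25 windows in all.

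No Hox window held TGACGTCA, which occurred in 1.55% of 32851 windows of the same length. The core TGACG occurred in 7 of the 25 Hox windows and in 17.8% of all windows. Hoxa11 held it in 2 places, beginning 202 and 17 bases before the start. AGGTCA occurred in 6 Hox windows, Hoxb4 and Hoxc4 among them, and in 14% of all. TATAAA occurred in 5, with Hoxa11os and Hoxd13 among them, and in 12.4% of all; in Hoxd13 it matched on both strands at overlapping positions. TGATNNAT was found in 4 Hox windows (7.68% of all) and TTTATG in 5 (10.8% of all). The Hoxd9 window held none of the 6. A match is a run of letters and not evidence of binding, and the absence of one says only that these letters are not in the window.

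Most of the family was expressed at a measurable level. All 32 arrays had 23 members well above background, 12 more were so on 8 to 31 arrays, and 3 on 1 to 7 arrays (Hoxb1 and Hoxd1 on 1 each, Hoxc13 on 3). Hoxb13, Hoxd11 and Hoxd12 were not well above background on any array. Among the paralogs of position 11, Hoxa11 and Hoxc11 were therefore measured on every array and Hoxd11 on none: its signal ran from -8.24 to -7.02 in KO stroma, -8.55 to -6.67 in WT stroma, -8.07 to -7.19 in KO tumor and -8.01 to -6.51 in WT tumor. The spread between arrays differed by tissue. The median SD over the 35 members well above background on at least 8 arrays was 0.519 in KO stroma, 0.77 in WT stroma, 0.429 in KO tumor and 0.428 in WT tumor.

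**Figure D1:**
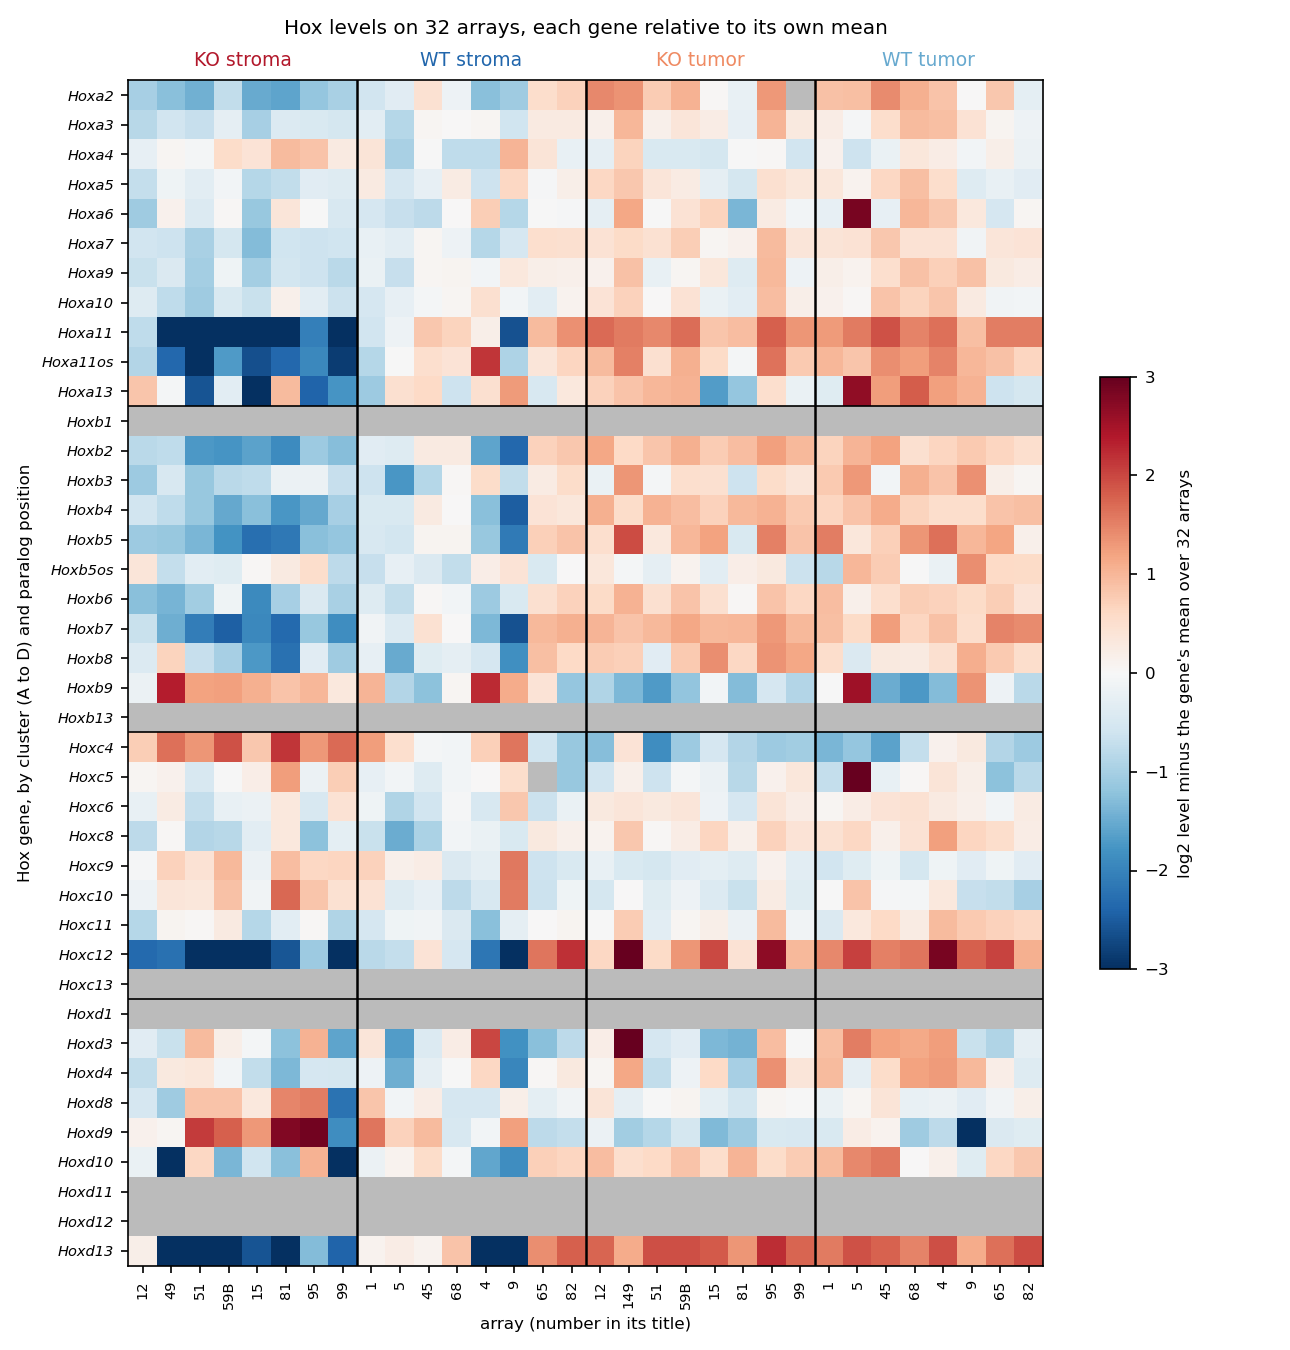
Heat map of 40 Hox genes (rows, by cluster and position) on the 32 arrays (columns, by group in the order KO stroma, WT stroma, KO tumor, WT tumor). Colour is the log2 level minus the gene's mean over all arrays, and grey marks genes well above background on fewer than 8 arrays or missing values. The tumor columns vary little (median SD 0.429 in KO tumor and 0.428 in WT tumor), while most HoxA and HoxB rows are lower in KO stroma and mixed in WT stroma.

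Hoxa11 and its antisense partner had the smallest p-values of the family between KO and WT stroma, although neither passed the threshold. Hoxa11 patterns the forearm and lower leg, the kidney and the uterus, and Hoxa11os is a noncoding transcript of its opposite strand. Hoxa11 had a lowest, median and highest level of -4.00, -3.13 and -0.63 in KO stroma, and of -2.48, 0.54 and 1.51 in WT stroma. All 8 KO arrays lay below the WT median, and the groups overlapped through WT array 9, which lay below KO arrays 95 and 12. Means over 8 arrays were -2.83 ± 1.06 (SD) in KO stroma and 0.21 ± 1.26 (SD) in WT stroma. Hoxa11 was thus 8.21-fold lower in KO stroma, by -3.04 ± 0.58 (SE) on the log2 scale (limma across all genes, adjusted p = 0.125).

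Hoxa11os behaved in the same direction. It had -3.11, -2.44 and -0.97 in KO stroma (lowest, median and highest), and -1.02, 0.28 and 2.06 in WT stroma. The groups overlapped at their edges only, where WT array 9 lay just below KO array 12, and all 8 KO arrays lay below the WT median. The difference was -2.49 ± 0.41 (SE), 5.64-fold lower in KO stroma (limma, adjusted p = 0.125). Both genotypes were present on 5 slides in stroma: Hoxa11 was lower in KO on 4 of them, with differences from -5.07 to 1.86, and Hoxa11os on 4, with differences from -3.37 to 0.05. A fit that held the slide as a fixed block gave -2.55 ± 0.69 for Hoxa11 and -2.03 ± 0.42 for Hoxa11os (SE; limma, adjusted p = 0.242 and 0.232).

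**Figure D2:**
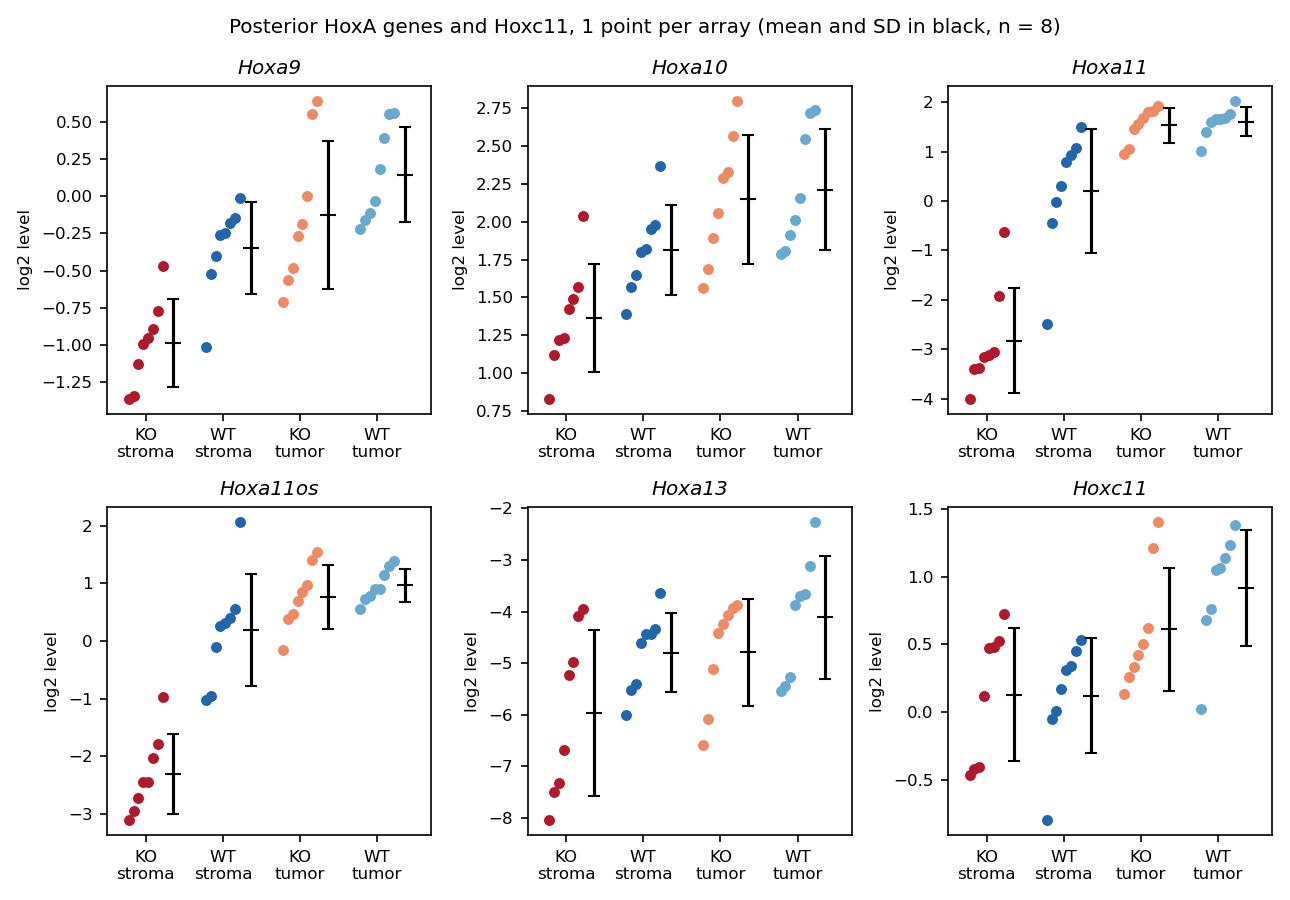
Log2 level (relative to the array's 75th percentile, vertical axis) of Hoxa9, Hoxa10, Hoxa11, Hoxa11os, Hoxa13 and Hoxc11 on every array, by group, with dots sorted by value within a group and the group's mean ± SD. In KO stroma Hoxa11 lies between -4.00 and -0.63, while the tumor arrays of both genotypes lie between 0.95 and 2.03.

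The neighbours of Hoxa11 in the cluster differed less between KO and WT stroma. Hoxa9, a regulator of blood progenitors and of posterior patterning, had -1.36, -0.97 and -0.47 in KO stroma and -1.01, -0.26 and -0.01 in WT stroma, a difference of -0.64 ± 0.17 (SE; limma, adjusted p = 0.125). Hoxa10, which acts in the uterus and the upper segment of the limbs, had 0.83, 1.33 and 2.04 in KO stroma and 1.39, 1.81 and 2.37 in WT stroma, a difference of -0.45 ± 0.19 (adjusted p = 0.144). Their groups overlapped, with all 8 KO arrays below the WT median for Hoxa9 and 7 of 8 for Hoxa10. Hoxa13, which shapes the digits and the hindgut and urogenital outlets, had -8.05, -5.96 and -3.96 in KO stroma and -6.00, -4.53 and -3.65 in WT stroma, and was well above background on 3 KO and 6 WT arrays. Its difference of -1.18 ± 0.59 had an adjusted p of 0.194 (limma), and it was -0.78 ± 0.71 without the arrays against their sex label (adjusted p = 0.419). Hoxc11, the paralog in HoxC, had -0.47, 0.30 and 0.72 in KO stroma and -0.80, 0.24 and 0.53 in WT stroma, so the groups covered nearly the same range. Its difference was 0.01 ± 0.24 (adjusted p = 0.986). The KO minus WT difference of Hoxa11 was thus beyond that of Hoxa9 by -2.40, of Hoxa10 by -2.59, of Hoxa13 by -1.86 and of Hoxc11 by -3.04 on the log2 scale, but beyond that of Hoxd13 by only -0.45 and of Hoxc12, dim on every KO stroma array, by -0.67. Hoxd13 was well above background on 4 of 8 KO and 6 of 8 WT stroma arrays. Hoxa11 had been singled out with its values known, so these contrasts are given without a test.

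Across the family, no member and no other gene passed an adjusted p under 0.05 between KO and WT stroma. The count was 0 of 33 Hox genes tested, beside 0% of 24772 genes in all (limma). At an unadjusted p under 0.05 there were 14 Hox genes, 13 of them lower in KO, which is 42.4% of those tested, beside 28.5% of all genes (15.9% lower). Of the 33, 22 were lower and 11 higher in KO stroma (66.7% lower, beside 44.7% of all genes), and the median difference was -0.45, beside 0.09 for all genes. Smallest of the adjusted p-values was 0.125, the same as over all genes. No Hox gene had groups that did not overlap, beside 0.141% of all genes.

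The clusters differed in which way their members leaned. In HoxA 11 of 12 tested genes were lower in KO stroma, with a median difference of -0.62, and in HoxB 7 of 9 were, with a median of -0.75. In HoxC 6 of 7 were higher, with a median of 0.40, and in HoxD 3 of 5 were lower, with a median of -0.05. Without WT stroma 65 and 82 the medians were -0.54 in HoxA, -0.22 in HoxB, 0.17 in HoxC and 0.16 in HoxD, and without the arrays against their sex label -0.70, -1.07, 0.59 and -0.47 in the same order. By position there was no such split: the medians were -0.45 for positions 1 to 4, -0.25 for 5 to 8 and -0.55 for 9 to 13. Hoxa2, which patterns the hindbrain and second pharyngeal arch, had -4.43, -4.06 and -3.59 in KO stroma and -4.10, -3.11 and -2.16 in WT stroma. All 8 of its KO arrays lay below the WT median, the groups overlapped, and the difference was -0.99 ± 0.29 (SE; limma, adjusted p = 0.125), or -0.55 ± 0.21 without WT stroma 65 and 82 (adjusted p = 0.655). The remaining tested members ranged from -2.58 ± 0.96 for Hoxd13 (adjusted p = 0.131), a gene of the digits and genital tubercle, to 1.17 ± 0.38 for Hoxc4 (adjusted p = 0.125), a gene of the cervical region. Without WT stroma 65 and 82 these were -1.22 ± 0.76 for Hoxd13 and 0.66 ± 0.31 for Hoxc4 (adjusted p = 0.7 and 0.675). The Hoxd13 difference rests in part on signal near background. Hoxc12, active in the limb and the hair follicle, was left untested by the filter: it was well above background on 0 of 8 KO arrays and on 6 of 8 WT arrays, and was at least 1.94-fold lower in KO stroma by the background bound. That bound sets the mean of the WT arrays against the mean of the KO arrays. Each KO array was taken at its dimmest measurable signal or at the probe's own signal, whichever was higher. The WT mean leans on arrays 65 and 82, at -2.38 and -1.81, as the other WT arrays lay between -7.62 and -3.59. No bound without these arrays is given here. The other 7 untested members were Hoxb1, Hoxb13, Hoxc13, Hoxd1, Hoxd3, Hoxd11 and Hoxd12.

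**Figure D3:**
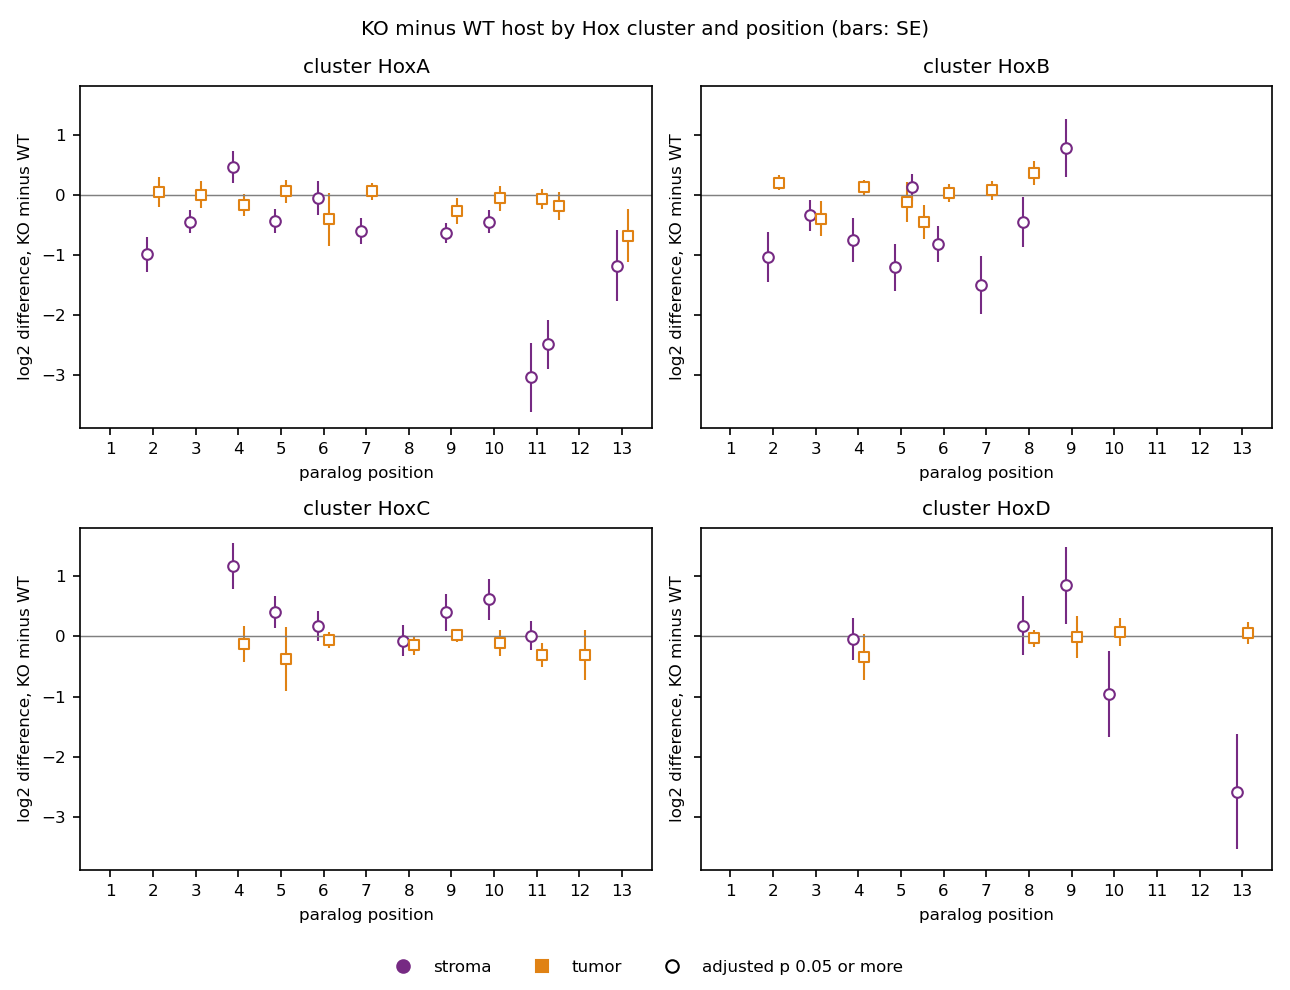
KO minus WT difference of the tested Hox genes on the log2 scale (vertical axis, bars are SE) by cluster (panels) and paralog position (horizontal axis; antisense genes are drawn to the right of their number), for stroma (circles) and tumor (squares). All symbols are open because no adjusted p was under 0.05. Hoxa11 at -3.04 and Hoxd13 at -2.58 in stroma lie lowest, Hoxd13 in part on signal near background. The tumor values lie between -0.68 and 0.36.

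The number of Hox genes called in stroma, like that of all genes, depended on single arrays. Without WT stroma 9 the fit called 16 of the Hox genes (48.5%, beside 34.3% of all genes). Without WT stroma 4 it called 10 (30.3%, beside 20.3%) and without KO stroma 12 it called 1 (3.03%, beside 0.0287%). Leaving out any other single array gave 0. Without the 3 stroma arrays that went against their sex label it called 13 (39.4%, beside 23.8% of all genes). Hoxa11 then stood at -3.62 ± 0.51 (SE; limma, adjusted p = 0.019). Without WT stroma 65 and 82 it called 0, the median Hox difference was -0.22 and Hoxa11 stood at -2.44 ± 0.58 (adjusted p = 0.652).

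Marker genes also varied over the stroma arrays, and their association with the Hox genes over arrays was not tested. The mean of 8 cell cycle genes was -1.55, -0.07 and 2.24 in KO stroma (lowest, median and highest) and -4.88, 2.42 and 3.47 in WT stroma, and all 8 were lower in KO (0 called). The mean of 10 skeletal muscle genes was 5.39, 7.41 and 7.73 in KO stroma and 0.46, 6.95 and 8.68 in WT stroma, and all 10 were higher in KO (0 called). KO stroma 12, with the highest Hoxa11 of its group, also had the highest cell cycle mean and the lowest muscle mean of that group. WT stroma 9, with the lowest Hoxa11 (-2.48), Hoxd13 (-6.69) and Hoxb2 (-3.61) of its group, had the lowest cell cycle mean and the highest muscle mean of that group. WT stroma 82 had the highest Hoxa11 (1.51), the highest cell cycle mean and the lowest muscle mean. WT stroma 4 went the other way: it had the highest Hoxa11os of its group (2.06) but a cell cycle mean of 0.52, below the group's median. Adipocyte genes (7 of 7), Schwann cell genes (5 of 5), endothelial genes (6 of 6), leukocyte genes (6 of 6), smooth muscle and pericyte genes (5 of 5) and fibroblast genes (9 of 10) also leaned higher in KO stroma, none past the threshold, and the 2 keratinocyte genes tested went either way. Their part in the Hox differences was not tested.

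**Figure D4:**
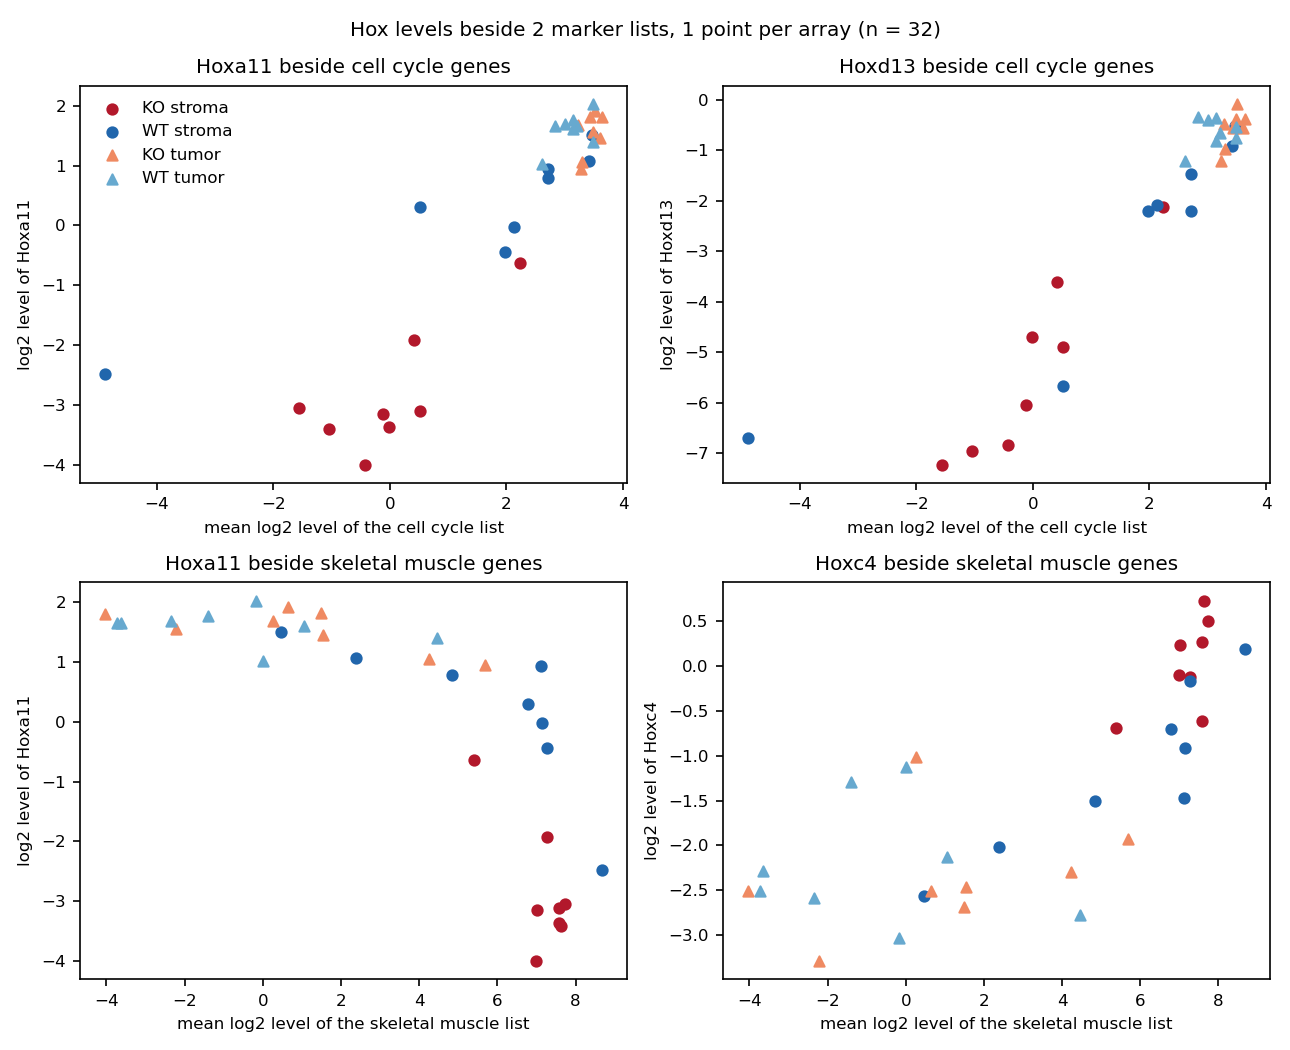
Log2 levels of Hoxa11 and Hoxd13 against the mean of 8 cell cycle genes, and of Hoxa11 and Hoxc4 against the mean of 10 skeletal muscle genes, one point per array, coloured by group. WT stroma 9 (cell cycle -4.88, Hoxa11 -2.48) lies with the KO stroma arrays in Hoxa11, and WT stroma 82 (cell cycle 3.47, Hoxa11 1.51) lies with the tumor arrays.

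In tumor pieces no Hox gene differed between KO and WT hosts by the test. Hoxa11 had 0.95, 1.62 and 1.92 in KO tumor and 1.02, 1.66 and 2.03 in WT tumor, and Hoxa11os had -0.16, 0.77 and 1.54 in KO tumor and 0.56, 0.90 and 1.39 in WT tumor. For both genes the groups overlapped over most of their range. The differences were -0.07 ± 0.16 and -0.19 ± 0.23 (SE; limma, adjusted p = 0.986 and 0.98). The count was 0 of 33 Hox genes tested, beside 0% of 23730 genes, and no Hox gene had an unadjusted p under 0.05, beside 3.53% of all genes. Of the 33, 13 were higher and 20 lower in KO tumor, with a median of -0.06, beside -0.03 for all genes. None had groups that did not overlap, beside 0.00421% of all genes. The 8 untested members were Hoxb1, Hoxb9, Hoxb13, Hoxc13, Hoxd1, Hoxd3, Hoxd11 and Hoxd12.

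The 4 Hox genes with the smallest p in tumor were Hoxb8, Hoxb5os, Hoxa13 and Hoxb2. Hoxb8, a regulator of myeloid progenitors, had -2.56, -1.46 and -0.83 in KO tumor and -2.66, -1.72 and -1.15 in WT tumor, a difference of 0.36 ± 0.20. Hoxb5os had -2.19, -1.52 and -1.20 in KO tumor and -2.38, -0.95 and -0.15 in WT tumor, a difference of -0.45 ± 0.28. Hoxa13 had -6.59, -4.33 and -3.88 in KO tumor and -5.55, -3.79 and -2.27 in WT tumor, a difference of -0.68 ± 0.44. Their groups overlapped widely, as did those of Hoxb2, a hindbrain gene, at 0.20 ± 0.13 (SE; limma, adjusted p = 0.98 for each). Hoxa9 differed by -0.27 ± 0.22, Hoxa10 by -0.06 ± 0.21 and Hoxc11 by -0.31 ± 0.20, all with adjusted p = 0.98 or above (limma).

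Stroma and tumor differed far more than the genotypes did. Over both genotypes 28 of 35 tested Hox genes passed an adjusted p under 0.05 (limma), 24 lower and 4 higher in stroma, which is 80% of those tested beside 62.8% of 27096 genes (36.8% lower and 26% higher). The median difference was -0.77, beside -0.13 for all genes. HoxA gave 10 lower of 12, HoxB 7 lower and 1 higher of 9, HoxC 4 lower and 2 higher of 8, and HoxD 3 lower and 1 higher of 6.

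In KO hosts 25 of 35 Hox genes passed, 20 lower and 5 higher in stroma, beside 59.7% of all genes (32.3% lower and 27.4% higher), with a median of -0.88, beside -0.03. Hoxa11 fell most clearly: at -4.00, -3.13 and -0.63 in KO stroma, against 0.95, 1.62 and 1.92 in KO tumor, the groups did not overlap. The difference was -4.36 ± 0.44 (SE), 20.6-fold lower (limma, adjusted p = 3.57e-07). Hoxa11os fell by 3.08 ± 0.34, 8.45-fold (adjusted p = 3.75e-07), also without overlap. Hoxd13 had -7.22, -5.47 and -2.12 in KO stroma and -1.20, -0.51 and -0.08 in KO tumor, with a difference of -4.72 ± 0.72 (adjusted p = 4.74e-06). It was well above background on 4 of 8 KO stroma arrays, so this size rests in part on signal near background and is given without a fold. Hoxc12 was well above background on 0 of 8 KO stroma arrays and on all 8 KO tumor arrays, and was at least 7.42-fold lower in stroma (adjusted p = 2.8e-06). Of the 35, 14 had groups that did not overlap, beside 31.3% of all genes.

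In HoxB, 7 of 9 tested genes fell in stroma of KO hosts and 1, Hoxb9, rose. Hoxb7, a gene of the trunk, had -0.23, 0.31 and 1.54 in KO stroma and 3.06, 3.20 and 3.51 in KO tumor, a difference of -2.77 ± 0.37 (SE; limma, adjusted p = 1.16e-06). Hoxb4, known for expanding blood stem cells, had -1.83, -1.28 and -0.67 in KO stroma and 0.47, 0.86 and 0.99 in KO tumor, a difference of -2.08 ± 0.28 (adjusted p = 1.23e-06). Neither gene's groups overlapped. Hoxb2 fell by 2.31 ± 0.32, Hoxb5 by 2.39 ± 0.37 and Hoxb6 by 1.63 ± 0.24 (adjusted p = 1.59e-06, 6.04e-06 and 3.39e-06), and in HoxA Hoxa2 fell by 1.97 ± 0.29 (7 KO tumor arrays, as array 99 lacked a value) and Hoxa7 by 1.19 ± 0.18 (adjusted p = 3.41e-06 and 5.38e-06).

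Members also rose in KO stroma. Hoxc4 had -0.69, 0.07 and 0.73 in KO stroma and -3.29, -2.48 and -1.01 in KO tumor, with no overlap, and was higher by 2.36 ± 0.35 (SE), 5.14-fold (limma, adjusted p = 3.81e-06). The others, named to complete the 5 after their values were seen, were Hoxb9, which was not well above background on any KO tumor array and was at least 1.84-fold higher in KO stroma (adjusted p = 0.00239), Hoxd9 at 1.89 ± 0.54, Hoxc9 at 0.81 ± 0.24 and Hoxc10 at 0.82 ± 0.29 (adjusted p = 0.00359, 0.00472 and 0.0167). With the slide as a fixed block Hoxd9 at 1.5, Hoxc9 at 0.57 and Hoxc10 at 0.55 no longer passed (adjusted p = 0.0508, 0.103 and 0.203), while Hoxc4 at 2.14 and Hoxb9 at 2.12 did (adjusted p = 0.000465 and 0.00555). Hoxa9 fell by 0.86 ± 0.20 and Hoxa10 by 0.78 ± 0.20 (adjusted p = 0.000513 and 0.00134), while Hoxa13 at -1.19 ± 0.54 and Hoxc11 at -0.48 ± 0.23 did not pass (adjusted p = 0.0593 and 0.0672). Without the arrays against their sex label Hoxa10 no longer passed and Hoxa13 stood at -0.54 ± 0.67 (adjusted p = 0.521). In the fit with the slide block Hoxb3 at -0.73 no longer passed and Hoxc11 at -0.66 passed anew (limma, adjusted p = 0.0568 and 0.024). Hoxa3, Hoxa5, Hoxb3, Hoxb8, Hoxc8 and Hoxd10 were also among the 20 that fell, by 0.70 to 1.88. Hoxa4, Hoxa6, Hoxb5os, Hoxc5, Hoxc6, Hoxd3, Hoxd4 and Hoxd8 did not pass either, and Hoxb1, Hoxb13, Hoxc13, Hoxd1, Hoxd11 and Hoxd12 were too dim to test between tissues.

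In WT hosts 14 of 35 Hox genes passed, 13 lower and 1 higher in stroma, beside 31.6% of all genes (19.8% lower and 11.8% higher), with a median of -0.77, beside -0.22. Hoxc8, a thoracic gene, had -2.04, -0.89 and -0.26 in WT stroma and -0.40, -0.06 and 0.68 in WT tumor, overlapping slightly, with a difference of -0.96 ± 0.22 (SE; limma, adjusted p = 0.00272). Hoxb4 had -2.56, -0.30 and 0.33 in WT stroma and 0.44, 0.67 and 1.02 in WT tumor. It was the 1 Hox gene whose groups did not overlap, beside 0.897% of all genes, and its difference was -1.21 ± 0.28 (adjusted p = 0.00292). Hoxa11 overlapped through WT stroma 65 and 82, with a difference of -1.39 ± 0.44, 2.63-fold lower (adjusted p = 0.0191), and Hoxa11os at -0.78 ± 0.34 did not pass (adjusted p = 0.0767).

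The other members that fell in WT stroma were Hoxd13, Hoxa7, Hoxc12 at -2.24 ± 0.63 (limma, adjusted p = 0.0101), Hoxb3 at -1.02 ± 0.28, Hoxc11 at -0.80 ± 0.23, Hoxb5 at -1.30 ± 0.37, Hoxb2 at -1.07 ± 0.32, Hoxa2 at -0.92 ± 0.28, Hoxb7 at -1.21 ± 0.37 and Hoxb6 at -0.78 ± 0.24 (SE; adjusted p from 0.0103 to 0.0175 for Hoxb3 to Hoxb6). Hoxc4 rose by 1.08 ± 0.35 (adjusted p = 0.0232). Without WT stroma 65 and 82 the differences were -3.44 for Hoxc12 and for Hoxd13, -1.95 for Hoxb7, -1.75 for Hoxb2 and -0.82 for Hoxa7, all past the threshold. Hoxa9, Hoxa10 and Hoxa13 did not pass, at -0.49 ± 0.20, -0.39 ± 0.20 and -0.69 ± 0.54 (adjusted p = 0.0562, 0.123 and 0.326).

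**Figure D5:**
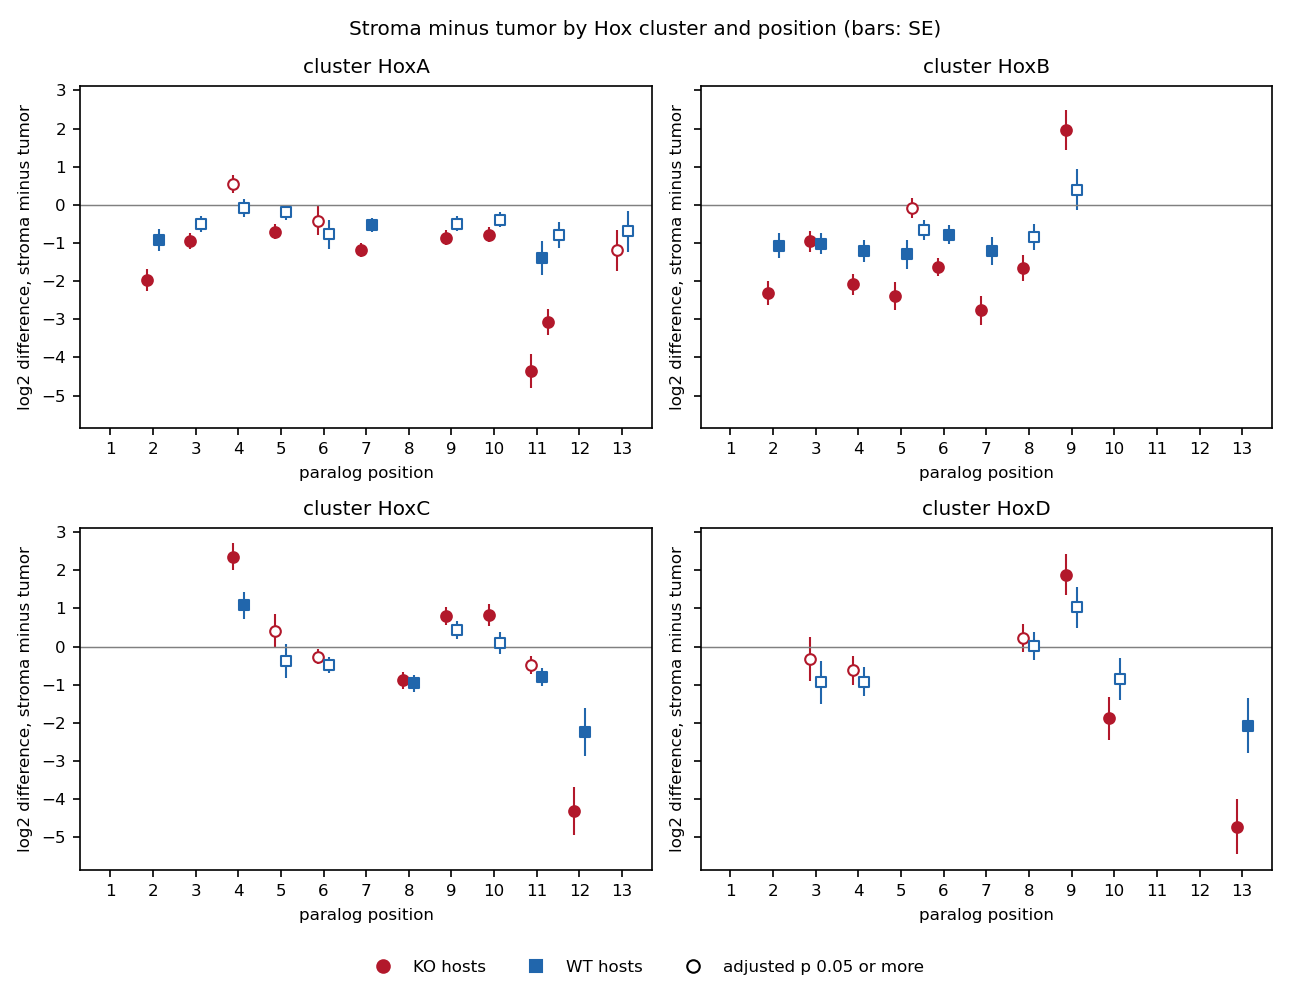
Stroma minus tumor difference of the tested Hox genes on the log2 scale (vertical axis, bars are SE) by cluster (panels) and position (horizontal axis), in KO hosts and in WT hosts; filled symbols have an adjusted p under 0.05. HoxA and HoxB values lie mostly below 0, Hoxc4 lies above 0 in both genotypes (2.36 in KO hosts and 1.08 in WT hosts), and Hoxd13 and Hoxa11 lie lowest in KO hosts.

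Arrays 65 and 82 of WT stroma often lay within the tumor range in their Hox genes, and so did other WT stroma arrays. Both lay inside the range of the 16 tumor arrays for 37 of the 41 members, 1 of them for 3 (Hoxc5, Hoxc6 and Hoxc9) and neither for 1. For 34 members 3 or more of the 8 WT stroma arrays were inside it, 7 of 8 for Hoxa9 and Hoxa10 and 5 for Hoxa11os. Both the 37 and the 34 include Hoxb1, Hoxb13, Hoxc13, Hoxd1, Hoxd11 and Hoxd12, which were well above background on few or no arrays. For Hoxb13, Hoxd1, Hoxd11 and Hoxd12, 7 of 8 KO stroma arrays lay inside the range as well. No such count over all genes is given here. For Hoxa11 the lowest and highest of the 16 tumor arrays were 0.95 and 2.03, and 2 of 8 WT stroma arrays lay inside that range, these 2 arrays. For Hoxb2, Hoxb7, Hoxc8, Hoxc12 and Hoxd13 the count was also 2 of 8 and the same 2 arrays, and for Hoxb4 it was 0. The skeletal muscle means of arrays 65 and 82 were 2.39 and 0.46 and their cell cycle means 3.42 and 3.47. Without them, 20 Hox genes passed between stroma and tumor in WT hosts, 18 lower and 2 higher (57.1%, beside 48.5% of 27046 genes). Without the arrays against their sex label 24 passed in KO hosts, 10 in WT hosts and 26 over both (68.6%, 28.6% and 74.3%, beside 53.4%, 21.8% and 56.7% of 26489 genes). The marker lists also differed between the tissues. All 10 skeletal muscle genes rose in stroma in both genotypes, with a median of 6.18 in KO hosts and 6.35 in WT hosts. All 8 cell cycle genes fell in both genotypes. Their median was -3.49 in KO hosts, where 8 passed the threshold, and -1.59 in WT hosts, where 1 did. Adipocyte genes rose in stroma for 7 of 7 in KO hosts and 6 of 7 in WT hosts, and endothelial genes for 6 of 6 in both. Their part in the Hox differences was not tested.

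Whether the genotype difference depended on the tissue was asked directly. No Hox gene and no other gene passed for the KO minus WT difference in stroma minus that in tumor (0 of 35 Hox genes, beside 0% of 27096 genes). The 14 Hox genes at an unadjusted p under 0.05, 12 of them negative, are 40% of those tested, beside 21% of all genes. Hoxa11os had the smallest p at -2.30 ± 0.48, followed by Hoxa11 at -2.97 ± 0.62 and Hoxb7 at -1.57 ± 0.52 (SE; limma, adjusted p = 0.134, 0.134 and 0.138). Without the arrays against their sex label 8 Hox genes passed (22.9%, beside 8.39% of all genes), with Hoxa11 at -3.38 ± 0.54 (limma, adjusted p = 0.0122). Without WT stroma 65 and 82 none did, with Hoxa11 at -2.37 ± 0.58 and Hoxb7 at -0.82 ± 0.35 (adjusted p = 0.559 and 0.619).

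Hoxd8, Hoxd9 and Hoxd10 differed widely between the arrays of KO stroma, a pattern picked out after the values were seen. Hoxd10, a gene of the lumbar region and the limb, had the largest SD of the 35 members in that group, at -6.73, -3.40 and -1.43 (lowest, median and highest; mean -3.65 ± 1.84, SD, n = 8), beside -4.34, -2.46 and -1.76 in WT stroma. KO stroma 99 was lowest for Hoxd8 (0.56), Hoxd9 (-5.25) and Hoxd10 (-6.73), and KO stroma 95 was highest for all 3, at 4.31, -0.48 and -1.43. Both arrays carry a sex label that their sex-linked genes went against. Hoxd13, of the same cluster, did not follow them: its lowest KO array was 59B and its highest was 12.

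Genes that work with or upstream of Hox proteins were read from lists. No gene of the 5 lists passed between KO and WT stroma. The counts between stroma and tumor that follow stand beside 59.7% of all genes called in KO hosts and 31.6% in WT hosts. Of the 9 TALE cofactors, 6 passed between stroma and tumor in KO hosts and 6 in WT hosts (66.7% in each), 1 higher and 5 lower in each. Pknox2 rose by 6.0 ± 0.89 and Pbx3, a Hox DNA-binding partner, fell by 1.91 ± 0.26 in KO hosts (SE; limma, adjusted p = 3.33e-06 and 1.44e-06). In KO stroma against WT stroma Pbx3 differed by -0.86 ± 0.33 and Pknox2 by 1.85 ± 0.82 (adjusted p = 0.133 and 0.162).

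Of 19 Polycomb and Trithorax genes tested, 15 passed in KO hosts (78.9%), 3 higher and 12 lower in stroma, and 9 in WT hosts (47.4%), 2 higher and 7 lower. Cbx2, a Polycomb chromodomain protein, fell by 2.68 ± 0.30, Ash2l by 1.77 ± 0.20, Suz12 by 1.64 ± 0.19 and Men1 by 1.41 ± 0.17 in KO hosts (limma, adjusted p = 4.32e-07, 4.32e-07, 4.67e-07 and 5.63e-07). Between KO and WT stroma 14 of the 19 were lower, Cbx2 by -1.65 ± 0.39 and Phc2 by -0.91 ± 0.25 (adjusted p = 0.125 each).

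Retinoic acid receptors belong to the signals that set Hox domains in the embryo. Of 7 tested genes of that list, 7 passed in KO hosts (beside 59.7% of all genes), 4 higher and 3 lower in stroma, and 4 in WT hosts (57.1%, beside 31.6%), 2 each way. Rarb rose by 4.76 ± 0.72 and Rarg fell by 1.45 ± 0.17 in KO hosts (SE; limma, adjusted p = 4.29e-06 and 5.33e-07). Between KO and WT stroma Rara differed by 0.66 ± 0.18 and Rarb by 1.83 ± 0.52 (adjusted p = 0.125 each). Among 22 tested limb and body wall factors 19 passed in KO hosts (86.4%), 11 higher and 8 lower, and 11 in WT hosts (50%), 7 higher and 4 lower. Gli3, the Hedgehog pathway factor that patterns digits, fell by 3.04 ± 0.41 and Tbx15 rose by 2.75 ± 0.40 in KO hosts (adjusted p = 1.38e-06 and 2.65e-06), and between KO and WT stroma Prrx1 differed by -0.72 ± 0.18 and Gli3 by -1.75 ± 0.54 (adjusted p = 0.125 each).

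Pitx1, the hindlimb identity factor, was picked from that list after its values were seen. It had -1.90, -0.86 and 1.82 in KO stroma and -3.40, 1.75 and 2.90 in WT stroma, and 2.60, 2.80 and 3.28 in KO tumor and 2.44, 2.74 and 3.01 in WT tumor. Its highest KO stroma array was 12, its lowest WT stroma array was 9 and its highest was 82, the arrays that stood out for Hoxa11. The KO minus WT difference in stroma was -1.83 ± 0.77 (SE; limma, adjusted p = 0.148). Of a list of transcripts in the Hox clusters, 5 were tested, 1 of them the member Hoxb5os, and 3 fell in stroma of KO hosts: Mira by 1.27 ± 0.18, Hoxaas3 by 1.18 ± 0.21 and Hoxd3os1 by 1.14 ± 0.38 (adjusted p = 2.18e-06, 3.88e-05 and 0.0106). In WT hosts 2 did, Hoxaas3 and Mira.

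More than 1 probe was present for 8 members: Hoxa3, Hoxa9, Hoxa10, Hoxb3, Hoxb5os, Hoxb8, Hoxb9 and Hoxd8. For Hoxb3 the dimmer probe, well above background on 17 of 32 arrays, gave 0.37 where the brighter one gave -0.34 between KO and WT stroma, and 0.43 where the brighter one gave -0.96 between stroma and tumor in KO hosts. The direction of Hoxb3 in those comparisons therefore depended on the probe. The probes also differed in sign for Hoxb5os between KO and WT stroma (0.12 for the brighter and -0.19 for the dimmer) and for Hoxb8 between KO and WT tumor (0.36 and -0.09). For Hoxd8 they did so between KO and WT stroma (0.18 and -0.06), between the tissues in KO hosts (0.23 and -0.09) and in WT hosts (0.02 and -0.06). The second probe of Hoxb9, well above background on 0 arrays, gave -0.21 where the brighter one gave 0.78 between KO and WT stroma, and -0.16 where it gave 0.40 between the tissues in WT hosts.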

How the data were processed

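Total RNA from 16 stroma and 16 tumor pieces was labelled with Cy3 and hybridised to 1-colour Agilent arrays, 8 per group. The scanner files deposited by the authors hold spot intensity values. The submitters' processing notes name Agilent Feature Extraction, version 10.7.3.1. The authors' deposited series matrix holds log2 values whose exact scaling is not given in the sources used here, and it served as an alternative within a tissue only.

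From the scanner files, log2 of the processed signal minus each array's 75th percentile was taken, control spots and outlier flags were left out, and spots of a probe were averaged. Of 56605 probes, 32994 matched a mouse RefSeq symbol, 22911 symbols in all. Genes entered a fit with 8 or more of its arrays well above background and no more than 2 values missing. limma 3.58.1 in R 4.3.3 (lmFit, eBayes) fitted 1 mean per genotype, tissue and sex label over all genes, with Benjamini-Hochberg adjustment and a threshold of 0.05, on 16 arrays within a tissue and on 32 between tissues. Python 3.11.15 did the rest.

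The code was tested on simulated data: for KO against WT stroma (24776 genes), 20 of 67, 48 of 67 and 56 of 66 genes changed by 1, 2 and 3 log2 units were recovered. There were 12 false calls. The noise was drawn for each gene on its own, so variation shared by many genes of an array was not simulated. Outlying single arrays were looked for with Dixon's critical value, 0.526 for 8 values and 0.568 for 7. The alternatives covered background correction (normexp, run on median signals, a choice made after seeing the data), scaling, filters, probe choice, variance settings, array weights, slide and replicate blocks, sex labels and left-out arrays.

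Values are given in full for Hoxa11, Hoxa11os, Hoxa9, Hoxa10, Hoxa13, Hoxc11 and Hoxd11, in each comparison for up to 12 members that passed by smallest p, or for 4 where none passed, and from each other list for up to 4 that passed, or 2 where none did. The members and lists were chosen with earlier results of these data known. The counts cover all 41 members; the values of 1 of them are not reported here and it is left out of the figures.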

Additional observations from a re-analysis of the deposited data

Results flagged for a closer look

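Single arrays stood far from the rest of their group of 8 for 7 Hox genes, by the gap to the nearest other array over the group's range. In 120 groups (30 members in 4 groups) there were 7 such arrays, and chance flags about 1 group in 20. None lay in KO stroma, 1 lay in WT stroma, 2 in KO tumor and 4 in WT tumor. In WT stroma, Hoxc11 was at -0.80 on array 4, where the next array was at -0.05. In KO tumor, Hoxb8 was at -2.56 on array 51 and Hoxc9 at 2.03 on array 95. In WT tumor, array 5 was highest for Hoxa6 at -1.04 (the next at -2.88) and for Hoxc5 at -0.29 (the next at -3.67). That array also had the highest share of spots well above background (76.3%) and the most outlier spots (483) of all 32 arrays. Whether this bears on its Hoxa6 and Hoxc5 values was not tested. Array 4 was highest for Hoxc8 at 0.68, and array 9 was lowest for Hoxd9 at -6.37.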

How the results depend on the processing

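Among values other than counts, 976 kept their direction and their side of the threshold, 41 passed it anew, 12 no longer passed it and 4 changed sign, leaving out single arrays aside. The number of Hox genes past the threshold between KO and WT stroma, 0 as reported, was 20 with array weights (60.6%, beside 65.7% of all genes). It was 13 with all 32 arrays in 1 fit (37.1%, beside 16.1%). Without the arrays against their sex label it was also 13 (39.4%, beside 23.8%). Leaving out 1 array gave from 0 to 16 Hox genes, the highest without WT stroma 9 (48.5%, beside 34.3% of all genes). It was 10 without WT stroma 4 (30.3%, beside 20.3%) and 1 without KO stroma 12 (3.03%, beside 0.0287%). Between stroma and tumor in WT hosts it was 22 at an adjusted p under 0.1 (62.9%, beside 43.2% of all genes), against 14 as reported. For genotype by tissue it was 17 with array weights (48.6%, beside 49% of all genes). Without the arrays against their sex label it was 8 (22.9%, beside 8.39%). What caused these shifts was not tested.

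Stroma and tumor share 15 replicate numbers, but the labels do not say whether a number marks 1 animal. Of the 15 correlations, 8 were over 0.1 and 5 arrays correlated best with their own number (from -0.0961 to 0.542). Numbers 95 and 99 went against their sex label in both tissues, and number 9 did so in stroma only. These values do not settle whether the numbers pair the samples. With the number as a random replicate block over all 32 arrays, 13 Hox genes passed between KO and WT stroma (37.1%, beside 16.7% of all genes). With a fixed replicate block 29 passed between stroma and tumor over both genotypes, 26 in KO hosts and 19 in WT hosts. These are 82.9%, 74.3% and 54.3%, beside 62.2%, 58% and 33.9% of all 26711 genes. For genotype by tissue 0 passed.

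Hoxc11 in KO against WT stroma changed sign with the slide as a fixed block (-0.10), without the arrays against their sex label (-0.02) and in the authors' series matrix (-0.01), and ran from -0.14 to 0.13 with 1 array left out. Hoxa11 in KO against WT tumor was 0.03 with the slide as a fixed block. Over the other settings Hoxa11 in stroma kept its direction, from -3.63 to -2.44 (limma, adjusted p from 6.56e-06 to 0.652). Once arrays against their sex label were dropped, Hoxa11, Hoxb7, Hoxa7, Hoxc4 and Hoxd13 no longer passed between stroma and tumor in WT hosts (limma, adjusted p = 0.0508, 0.0514, 0.073, 0.0926 and 0.104), and Hoxc6 passed anew at -0.64 (adjusted p = 0.00818). Scaling moved the median of all genes between stroma and tumor in KO hosts to 0.14 (percentile over bright probes) or -0.16 (quantile), against -0.03 as reported, and the Hox median to -0.71 and -0.95.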
